A study of Mus musculus with 8 samples.

Results

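The DNA methyltransferase genes Dnmt1, Dnmt3a, Dnmt3b and Dnmt3l, the gene of their hemimethylated DNA-binding partner Uhrf1, and the TET dioxygenase genes Tet1, Tet2 and Tet3 were followed through 2 RNA-seq experiments on KLF3 in mouse embryonic stem cells (mESCs). These 8 genes were taken by symbol from the deposited tables and were found in both, among 13056 genes in the first experiment and 14319 in the second. Mammalian DNA methylation is copied onto new strands by DNMT1, which UHRF1 recruits to hemimethylated CpG sites, and is laid down at new sites by DNMT3A and DNMT3B, whose activity is stimulated by the catalytically inactive cofactor DNMT3L. The TET enzymes oxidize 5-methylcytosine, which opens the way to its loss through replication or base excision repair. Mouse ESCs are known to express all of these functions, with TET1 and TET2 as their main TET enzymes and TET3 better known from the oocyte and zygote.

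All cells were mESCs on a C57BL/6(F) x 129/sv(M) background, grown with serum and leukemia inhibitory factor on gelatin. For the first experiment, cells carried a reporter in which Emerald GFP was joined to the N-terminal portion of KLF3, lacking the DNA-binding domain, under the CAGGS promoter, next to DsRed under the EF1α promoter. The positive (KLF3-GFP-positive) and negative (KLF3-GFP-negative) populations therefore both came from cells with the construct, and 500 cells per sample were sorted for Smart-seq2, which amplifies full-length cDNA. For the second, R26 mESCs with the transactivator M2rtTA and a recombination site at Col1A1 had received codon-optimized Klf3 (KLF3-OE) or GFP (GFP-OE), and doxycycline induced the transgene for 72 h before poly(A) RNA-seq. The cells of each line came from picked colonies, and the overexpressing clones had been on feeder cells during selection. Each of the 4 conditions had 2 samples, but the deposited tables hold 1 value per gene and condition, the authors' mean of the replicates.

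Values are FPKM, fragments normalized for transcript length and library size, so levels are per length and different genes can be set side by side within a column. The depth behind each mean and the spread between replicates are unknown, so no SD, interval or test stands beside any value, and whether neighbouring levels differ beyond the replicate error cannot be said. Differences are given as log2(FPKM + 1) of one condition minus that of the other, which understates the difference of low genes, and were taken for genes whose mean across the 2 columns of a table reached 1 FPKM. This left 9212 genes in sorted cells and 11179 on overexpression, and genes past a 2-fold difference on this scale were counted as higher or lower. Here and below, within 2-fold means within this limit on the log2(FPKM + 1) scale, although low genes can differ by more in plain FPKM. The median difference of all these genes was 0.03 in sorted cells and -0.18 on overexpression. The lowest value in the tables is 0.1.

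The KLF3-OE column stood apart from GFP-OE on the Y chromosome. Eif2s3y was at 30.9 FPKM in GFP-OE and 1.67 FPKM in KLF3-OE, and Uty and Ddx3y were at the lowest value in KLF3-OE against 3.56 and 3.34 FPKM in GFP-OE. The median difference was -2.02 over 4 Y-linked genes, -0.29 over 361 X-linked genes and -0.17 over 10801 autosomal genes. Differences between these clones other than the transgene and the effect of the transgene cannot be told apart. Klf3 itself was at 107 and 122 FPKM in negative and positive cells and at 58.7 and 47.8 FPKM in GFP-OE and KLF3-OE. It checks no label, since the reporter holds part of Klf3 and the codon-optimized transgene need not align to it. All 10 embryonic stem cell markers examined were measured in each column, and of 10 fibroblast and feeder markers 1 reached the minimum in sorted cells and 3 on overexpression.

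Since KLF3 belongs to a family that binds CACCC boxes, sequences upstream of the start sites of the 3 de novo genes are shown first. RefSeq (GRCm38.p6) lists 15 start sites for the 8 genes, and 8 of their 250-base upstream sequences (53.3%) held CACCC on either strand, against 52.0% of all 32851 such sequences. The longer CCCCACCC, which contains CACCC, was found in 5 of the 15 against 9.05% of all, and CCACACCC, which also contains it, in 0 against 3.2%. The start sites of a gene share sequence where they lie close, so these are not independent counts. Shown are 2 upstream sequences of Dnmt3l, the gene higher in both experiments, and 1 each of Dnmt3a and Dnmt3b, which differed from each other in direction in sorted cells. They overlap no exon annotated in GENCODE M21, both Dnmt3l sequences lie within the gene's span upstream of internal start sites, and all are written 5′ to 3′ on the strand of the gene, and carry CACCC, or GGGTG where it lies on the other strand, in capitals.
Dnmt3l, chr10:78049592-78049841, plus strand: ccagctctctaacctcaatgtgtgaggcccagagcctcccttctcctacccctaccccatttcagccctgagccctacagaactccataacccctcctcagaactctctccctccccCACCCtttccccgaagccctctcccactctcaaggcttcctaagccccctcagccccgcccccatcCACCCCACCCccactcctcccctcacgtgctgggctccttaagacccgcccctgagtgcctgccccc
Dnmt3l, chr10:78055085-78055334, plus strand: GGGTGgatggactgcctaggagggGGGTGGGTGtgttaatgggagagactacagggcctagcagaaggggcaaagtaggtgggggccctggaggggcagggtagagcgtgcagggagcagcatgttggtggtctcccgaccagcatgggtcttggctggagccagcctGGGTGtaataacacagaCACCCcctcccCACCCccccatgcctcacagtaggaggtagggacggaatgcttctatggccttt
Dnmt3a, chr12:3806730-3806979, plus strand: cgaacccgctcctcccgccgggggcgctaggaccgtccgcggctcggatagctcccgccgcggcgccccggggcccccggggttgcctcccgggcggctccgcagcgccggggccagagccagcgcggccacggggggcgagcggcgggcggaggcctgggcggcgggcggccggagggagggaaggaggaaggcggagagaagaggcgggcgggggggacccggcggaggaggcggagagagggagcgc
Dnmt3b, chr2:153649199-153649448, plus strand: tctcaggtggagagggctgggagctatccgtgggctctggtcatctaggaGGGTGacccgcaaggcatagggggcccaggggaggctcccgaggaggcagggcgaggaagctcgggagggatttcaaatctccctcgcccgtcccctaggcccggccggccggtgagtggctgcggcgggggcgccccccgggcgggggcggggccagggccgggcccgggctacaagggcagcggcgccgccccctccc
The first Dnmt3l sequence held 3 CACCC and 4 CpG, and the second held 6 CACCC and 3 CpG. The Dnmt3a sequence held 0 CACCC and 38 CpG, and the Dnmt3b sequence held 1 CACCC and 21 CpG, where the median of all upstream sequences was 6 CpG. The Dnmt3l sequences thus lay below this median but between the quartiles of all sequences (2 and 16 CpG). The Dnmt3a and Dnmt3b sequences lay above the upper quartile. Not shown because they overlap annotated exons are the most upstream start of Dnmt3l (chromosome 10 from 78042037 to 78042286), which held 0 CACCC and 5 CpG, and 2 further starts of Dnmt3a, which held 0 and 1 CACCC. The start sites of Dnmt3l thus did not all hold CACCC. Nor was CACCC particular to Dnmt3l. The upstream sequences of Dnmt1 held 3, 2 and 0, those of Uhrf1 3 and 0, that of Tet3 3, and those of Tet1 and Tet2 0, where the median of all was 1. The longer CCCCACCC was found upstream of Dnmt1, Uhrf1 and Tet3 as well as Dnmt3l. A match to these letters is a description and not a binding site, and gene-level FPKM do not show which start site was used.

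In sorted cells, 7 of the 8 genes passed the minimum, Tet3 being too low. Of these, 2 were higher past 2-fold in positive cells (Dnmt3l and Dnmt3b), where 13.8% of all genes tested were, and 2 were lower (Dnmt3a and Tet1), where 8.32% of all were. On overexpression 7 of the 8 genes again passed, with 2 higher in KLF3-OE (Dnmt3l and Dnmt3a) against 6.6% of all genes, and 2 lower (Dnmt1 and Tet2) against 10.1% of all. With the columns scaled to a median ratio of 1, 10.4% of all genes were higher and 6.25% lower in KLF3-OE, and Tet2 at -0.998, just inside the limit, was no longer counted. So few genes allow no reading of these shares, and the results that follow are those of the single genes.

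**Figure D1:**
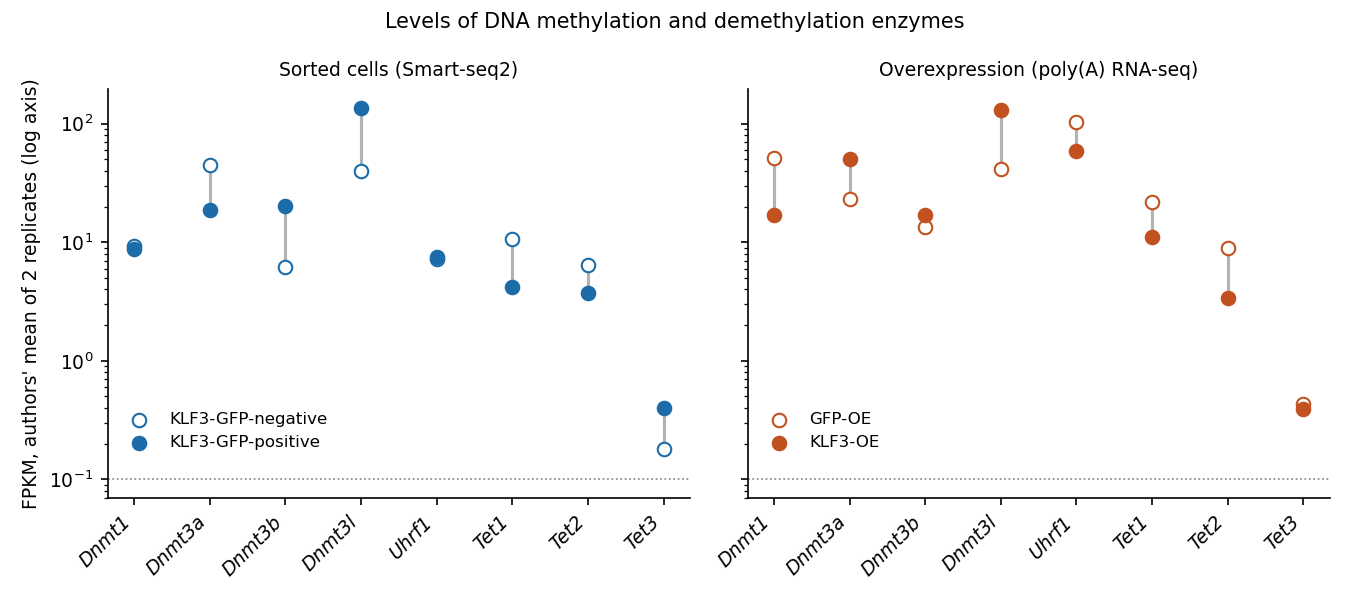
FPKM (log axis, the authors' mean of 2 replicates) of the 8 genes in each of the 4 conditions, open circles for KLF3-GFP-negative or GFP-OE and filled circles for KLF3-GFP-positive or KLF3-OE, with the lowest value of the tables dotted. Dnmt3l was the highest of the 8 genes in KLF3-GFP-positive (137 FPKM) and in KLF3-OE (129.55 FPKM), and Tet3 was below 0.5 FPKM throughout.

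Of the maintenance genes, Dnmt1 (ENSMUSG00000004099, chromosome 9 of mm10 from 20907206 to 20959888, minus strand) was at 9.26 FPKM in negative and 8.72 FPKM in positive cells, a difference of -0.08. In GFP-OE it was at 51.8 FPKM and in KLF3-OE at 16.9 FPKM, 3.06-fold lower, a difference of -1.56. Dnmt1 was thus near equal between the sorted populations and well apart between the overexpressing clones, where 1.8% of the genes tested had a lower difference. Uhrf1 (ENSMUSG00000001228, chromosome 17 from 56303321 to 56323486, plus strand), whose protein brings DNMT1 to hemimethylated DNA, was at 7.17 and 7.47 FPKM in negative and positive cells, a difference of 0.05 whose sign turned in 3 of 11 other processings. In GFP-OE and KLF3-OE Uhrf1 was at 102.52 and 58.9 FPKM, a difference of -0.79. It did not pass the 2-fold limit there except with quantile normalization (-1.05). The level of Uhrf1 over that of Dnmt1 was 0.774 in negative cells, 0.857 in positive cells, 1.98 in GFP-OE and 3.48 in KLF3-OE, so the partner stood below the enzyme in both sorted populations and above it in both overexpression columns. The experiments differed in library protocol and cell line, so this contrast between them cannot be told apart from those differences.

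Dnmt3a and Dnmt3b, the catalytic de novo enzymes, lay in opposite directions in sorted cells. Dnmt3a (ENSMUSG00000020661, chromosome 12 from 3806007 to 3914443, plus strand) was at 44.5 FPKM in negative and 18.9 FPKM in positive cells, 2.36-fold lower, with a difference of -1.20. Dnmt3b (ENSMUSG00000027478, chromosome 2 from 153649450 to 153687730, plus strand) was at 6.15 FPKM in negative and 20.4 FPKM in positive cells, 3.32-fold higher, with a difference of 1.58. The level of Dnmt3b over that of Dnmt3a was accordingly 0.138 in negative and 1.08 in positive cells, while their sum was 50.7 and 39.3 FPKM. On overexpression Dnmt3a lay the other way, at 23.2 FPKM in GFP-OE and 50.1 FPKM in KLF3-OE, a difference of 1.08. With a trend over the GC content of transcripts removed, taken as the median over the transcripts of a gene, this difference was 0.89 and no longer past the limit. Dnmt3b was at 13.5 FPKM in GFP-OE and 16.95 FPKM in KLF3-OE, a difference of 0.30 that stayed within 2-fold. The ratio of Dnmt3b to Dnmt3a was 0.583 in GFP-OE and 0.338 in KLF3-OE, and the sum of both was 36.8 and 67.1 FPKM. Of 8887 genes tested in both experiments, 66 (0.743%) were, like Dnmt3a, lower in positive cells and higher in KLF3-OE. Antisense genes overlap Dnmt3a, Dnmt3b and Tet2, and a strand setting of the counting is not given in the sources used here, so reads from the opposite strand cannot be told apart. Dnmt3c, a close copy of Dnmt3b, was not analysed here, and reads of it could count towards Dnmt3b.

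Dnmt3l (ENSMUSG00000000730, chromosome 10 from 78041947 to 78063622, plus strand), the cofactor of the de novo enzymes, was the 1 gene of the 8 that was higher past 2-fold in both experiments, as were 227 of the 8887 genes tested in both (2.55%). It was at 39.7 FPKM in negative and 137 FPKM in positive cells, 3.45-fold higher. In GFP-OE it was at 41.1 FPKM and in KLF3-OE at 129.55 FPKM, 3.15-fold higher. Its difference lay above that of 94.8% of genes for the sorted populations and of 98.7% of genes on overexpression. Over 11 other processings its difference lay between 1.60 and 1.83 in sorted cells and between 1.46 and 1.84 on overexpression. The level of Dnmt3l over the sum of Dnmt3a and Dnmt3b was 0.783 in negative and 3.48 in positive cells, and 1.12 in GFP-OE and 1.93 in KLF3-OE. The cofactor thus stood below the summed level of both enzymes in negative cells, where it was below Dnmt3a but above Dnmt3b, and above that sum in the other 3 columns. Levels are not compared between the experiments, which differed in library protocol and cell line. Dnmt3l overlaps Aire on the opposite strand, and Aire was at 2.1 and 0.89 FPKM in sorted cells and at 8.3 and 3.72 FPKM on overexpression, lower in the conditions where Dnmt3l was higher.

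Among the 8887 genes tested in both experiments, those whose differences lay nearest to the pair of Dnmt3l by Euclidean distance were Gpx2, which encodes a glutathione peroxidase, Smim4, Tnfrsf12a, the receptor of the cytokine TWEAK, Mtmr11 and the semaphorin receptor gene Plxnb2, at distances from 0.05 to 0.14 on the log2 scale. Gpx2 was at 14.25 and 49.2 FPKM in negative and positive cells and at 13.9 and 44.2 FPKM in GFP-OE and KLF3-OE. The likeness rests on 2 differences per gene and on no replicate.

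**Figure D2:**
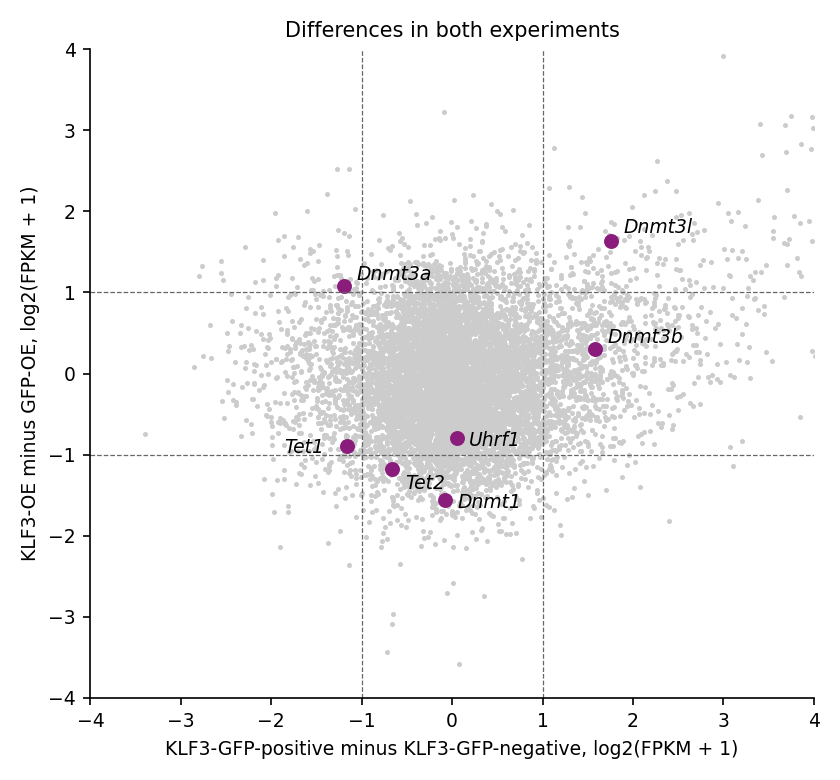
Difference in log2(FPKM + 1) in sorted cells (x axis, KLF3-GFP-positive minus KLF3-GFP-negative) against that on overexpression (y axis, KLF3-OE minus GFP-OE), with the 8887 genes tested in both in grey (those within 4 of 0 on both axes), the 7 tested DNA methylation genes in purple and 2-fold limits dashed. Dnmt3l lies at 1.76 and 1.63, beyond both limits, and Dnmt3a at -1.20 and 1.08, in the opposite corner from genes higher in sorted cells and lower on overexpression.

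Tet1 and Tet2 were lower in value in both experiments, past 2-fold for Tet1 in sorted cells and for Tet2 on overexpression. Tet1 (ENSMUSG00000047146, chromosome 10 from 62804570 to 62899118, minus strand) was at 10.7 FPKM in negative and 4.21 FPKM in positive cells, 2.54-fold lower, with a difference of -1.17. In GFP-OE and KLF3-OE it was at 21.7 and 11.2 FPKM, a difference of -0.90 that stayed within 2-fold and lay between -0.96 and -0.43 over 11 other processings, nearest 0 with the trends over span, length and GC content of the longest transcript removed. Tet2 (ENSMUSG00000040943, chromosome 3 from 133463679 to 133545139, minus strand) was at 6.47 and 3.73 FPKM in negative and positive cells, a difference of -0.66. In GFP-OE and KLF3-OE it was at 8.9 and 3.39 FPKM, 2.63-fold lower in plain FPKM, with a difference of -1.17 that fell inside the limit in 7 of 11 other processings. Tet3 (ENSMUSG00000034832, chromosome 6 from 83362373 to 83459084, minus strand) was at 0.18, 0.4, 0.43 and 0.39 FPKM in negative cells, positive cells, GFP-OE and KLF3-OE, too low in each column for a difference. Tet1 stood above Tet2 in all 4 columns, with a ratio of 1.65 in negative cells, 1.13 in positive cells, 2.44 in GFP-OE and 3.29 in KLF3-OE. The sum of the 3 genes was 17.3 FPKM in negative and 8.34 FPKM in positive cells, and 31.0 and 14.95 FPKM in GFP-OE and KLF3-OE.

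The difference on overexpression varied with the genomic span of a gene, which matters for the TET genes because they are long. Over 5 groups of equal size, from short to long genes, its median was 0.35, -0.01, -0.22, -0.44 and -0.49. Dnmt3l (21.7 kb) and Uhrf1 (20.2 kb) lay in the middle group, Dnmt1 (52.7 kb) and Dnmt3b (38.3 kb) in the next, and Dnmt3a (108.4 kb), Tet1 (94.5 kb) and Tet2 (81.5 kb) in the longest. With this trend removed, Dnmt1 was at -1.27, Dnmt3a at 1.37, Dnmt3l at 1.66, Tet1 at -0.60 and Tet2 at -0.87. Dnmt3a was therefore higher in KLF3-OE although the genes of its length were mostly lower, and Tet2 no longer passed the limit. The difference on overexpression also varied with transcript length, with medians from 0.45 in the shortest to -0.54 in the longest group. Over the GC content of transcripts, medians went from -0.53 in the lowest group, which held Tet1, to 0.14 in the highest. The cause of these trends was not tested.

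**Figure D3:**
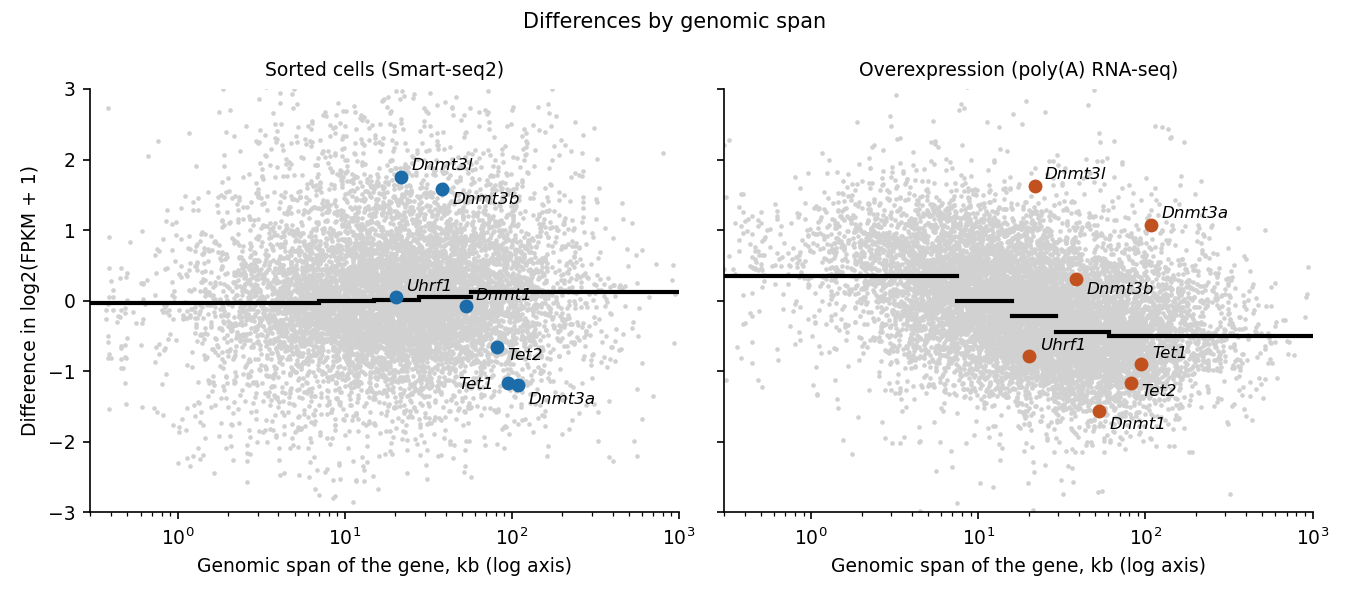
Difference in log2(FPKM + 1) of each gene tested (grey) against its genomic span in kb (log axis) in sorted cells and on overexpression, with the DNA methylation genes coloured and the median of each of 5 groups of equal size as a black line. On overexpression the medians go from 0.35 in the shortest to -0.49 in the longest group, and Dnmt3a at 1.08 lies far above the median of its group.

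Genes that work with the maintenance machinery were mostly lower in value in both experiments, although on overexpression so were most genes tested. In sorted cells 16 of 18 in the list reached the minimum, with 0 higher, 4 lower and a median of -0.59 against 0.03 for all genes. Of all genes, 13.8% were higher and 8.32% lower there. Cdca7 was at 23.6 and 7.8 FPKM in negative and positive cells and Hells, the chromatin remodeller that CDCA7 activates, at 210.95 and 78.0 FPKM. Cdca7l was at 3.99 and 0.94 FPKM, and the 4th gene counted, named for that reason, was Zfp57, which protects imprinted methylation, at 51.6 and 20.4 FPKM. On overexpression 17 of 18 reached the minimum, with 2 higher and 6 lower (4 after median-ratio scaling), where 6.6% of all genes were higher and 10.1% lower. Their median was -0.52 (-0.31 after median-ratio scaling), against -0.18 for all genes. Zfp445, which acts with ZFP57 at imprinted regions, was at 5.62 FPKM in GFP-OE and at the lowest value in KLF3-OE, and reached the minimum only through GFP-OE. Hells was at 68.1 and 24.1 FPKM and Trim28, the corepressor that KRAB zinc finger proteins recruit, at 644.17 and 1892.18 FPKM. Ehmt2 was the other gene counted as higher (39.79 and 100.95 FPKM). Zfp57, given again for its values, lay the other way from sorted cells, at 200.5 and 303.79 FPKM, within 2-fold. Cdca7 (96.8 and 37.2 FPKM) and Cdca7l (19.6 and 8.34 FPKM, inside the limit at -0.95 after median-ratio scaling) are given here because they, like Hells, were lower past 2-fold in both experiments. Of the 8887 genes tested in both, 61 (0.686%) were so. Cdca7l reached the minimum in sorted cells only through negative cells. Dnmt1 was lower past 2-fold on overexpression and near equal in sorted cells.

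S phase genes, with which Dnmt1 and Uhrf1 are known to cycle, had a median of -0.55 over 15 genes in sorted cells, against 0.03 for all genes, with 0 higher and 3 lower, where 8.32% of all genes were lower. On overexpression the median over 15 genes was -0.49 (-0.29 after median-ratio scaling), against -0.18 for all genes, with 0 higher and 2 lower, a share near the 10.1% of all genes. Pola1, a subunit of DNA polymerase alpha, was at 13.4 and 2.62 FPKM in negative and positive cells and at 13.7 and 4.24 FPKM in GFP-OE and KLF3-OE. In sorted cells the other genes counted were Ccne1 (141 and 65.1 FPKM) and Mcm6 (42.3 and 19.7 FPKM), and on overexpression Mcm4 (69.3 and 27.95 FPKM). Mcm2 was at 126.83 and 77.8 FPKM there, within 2-fold. Their part in the values of Dnmt1 and Uhrf1 was not tested.

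Regulators of where de novo methylation falls held 1 lower gene of 9 tested in sorted cells (median -0.13, and 2 lower after median-ratio scaling) and 2 lower of 11 on overexpression (median -0.76, and 1 lower after median-ratio scaling), with 0 higher in both. Of all genes, 8.32% were lower in sorted cells and 10.1% on overexpression, with medians of 0.03 and -0.18. So few genes allow no reading of these counts. Dppa3, which keeps UHRF1 from chromatin, was at 23.4 FPKM in negative and 5.53 FPKM in positive cells. It was followed there by the histone demethylase genes Kdm5b (16.2 and 7.7 FPKM) and Kdm2b (4.2 and 1.93 FPKM), both inside the limit on the log2(FPKM + 1) scale, which Kdm5b passed after scaling (-1.02). On overexpression Prdm14, known as a repressor of Dnmt3b and Dnmt3l in mESCs, was at 11.9 FPKM in GFP-OE and 3.2 FPKM in KLF3-OE. In sorted cells Prdm14 was at 1.0 and 0.11 FPKM, below the minimum mean. Kdm2a was at 9.72 and 3.82 FPKM and Kmt2b at 16.8 and 7.97 FPKM in GFP-OE and KLF3-OE, the latter within 2-fold. Prdm14 was thus lower in value in each condition in which Dnmt3l was higher, and its part in the level of Dnmt3l was not tested.

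Among the partners of the TET enzymes and the base excision genes, 2 were higher and 2 lower of 18 in sorted cells (median -0.01), and 3 higher and 4 lower of 19 on overexpression (median -0.14, but 4 higher and 3 lower with a median of 0.06 after median-ratio scaling). Of all genes, 13.8% were higher and 8.32% lower in sorted cells, so the counts there lay near these shares. On overexpression 6.6% of all genes were higher and 10.1% lower. Gadd45g, whose family has been tied to active demethylation and to stress signalling, was at 1.76 and 28.3 FPKM in negative and positive cells and at 1.33 and 18.7 FPKM in GFP-OE and KLF3-OE. Hmces, a sensor of abasic sites, was at 91.45 and 30.4 FPKM and the uracil glycosylase gene Ung at 29.8 and 10.8 FPKM in sorted cells. On overexpression the glycosylase gene Neil3 was at 8.94 and 2.44 FPKM and Ogt, whose product binds TET proteins, at 46.6 and 16.5 FPKM. Tdg, the glycosylase that removes the oxidized bases made by TET enzymes, was named after its values were seen, at 5.06 and 5.23 FPKM in sorted cells and at 18.7 and 7.4 FPKM on overexpression. Hmces, also named again for its values, lay the other way on overexpression, at 58.1 FPKM in GFP-OE and 119.69 FPKM in KLF3-OE.

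Of the proteins that read methylated CpG, 1 of 6 tested genes was higher in sorted cells (median -0.19) and 0 of 9 passed 2-fold on overexpression (median -0.36). For this list and the next, the shares of all genes were 13.8% higher and 8.32% lower in sorted cells. On overexpression they were 6.6% and 10.1%. Mbd2 was at 0.51 and 4.45 FPKM in negative and positive cells, reaching the minimum only through the latter, while Mbd4 (3.26 and 1.79 FPKM) stayed within 2-fold. On overexpression the largest differences were those of Mbd4 (5.39 and 2.2 FPKM), Zbtb38 (2.2 and 0.67 FPKM) and Mbd3 (93.8 and 151.65 FPKM), the last in the opposite direction. For the cycle that supplies the methyl donor S-adenosylmethionine, 1 gene was higher and 3 were lower of 17 in sorted cells (median -0.11, with 4 lower after median-ratio scaling), and 0 were higher and 1 was lower of 18 on overexpression (median -0.24, with 0 lower after median-ratio scaling). The mitochondrial folate enzyme gene Mthfd2 was at 84.9 and 22.8 FPKM, the serine hydroxymethyltransferase gene Shmt2 at 33.4 and 13.5 FPKM and the glycine decarboxylase gene Gldc at 2.67 and 7.45 FPKM in negative and positive cells. On overexpression Mat2b was at 36.7 and 16.0 FPKM, followed by Mtr (5.36 and 2.21 FPKM) and Ahcy (103.09 and 60.8 FPKM), both inside the limit on the log2(FPKM + 1) scale.

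Germline genes whose promoters are known to be methylated in somatic cells, and which are sensitive to loss of DNA methyltransferases, were examined next. Of 9 tested in sorted cells, 0 were higher and 6 lower past 2-fold in positive cells, where 8.32% of all genes were lower, with a median of -1.29, and Stk31 (4.15 and 0.79 FPKM), Hormad1 (4.3 and 0.95 FPKM) and Tex19.1 (10.4 and 3.22 FPKM) differed most. The other 3 did not pass the limit, and Sycp3 among them, named after its values were seen, was at 7.65 and 8.9 FPKM. Stk31, Hormad1 and Mael (3.19 and 0.71 FPKM) among the 6, and Tex101 (1.73 and 0.55 FPKM) among the other 3, were below 1 FPKM in positive cells. They reached the minimum only through negative cells, so the count as lower and the median were partly favoured by it. Tex19.1, Tdrkh (9.11 and 2.79 FPKM) and Ddx4 (4.29 and 1.34 FPKM) were above 1 FPKM in both columns. On overexpression 0 were higher and 1 was lower of 10, where 10.1% of all genes were lower, with a median of -0.23, and after median-ratio scaling 0 were lower. Hormad1 was at 7.95 and 3.33 FPKM there, and Ddx4 (10.5 and 5.84 FPKM) and Dazl (4.44 and 2.64 FPKM) stayed within 2-fold. Whether the experiments differ for this list was not tested, and DNA methylation itself was not measured.

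**Figure D4:**
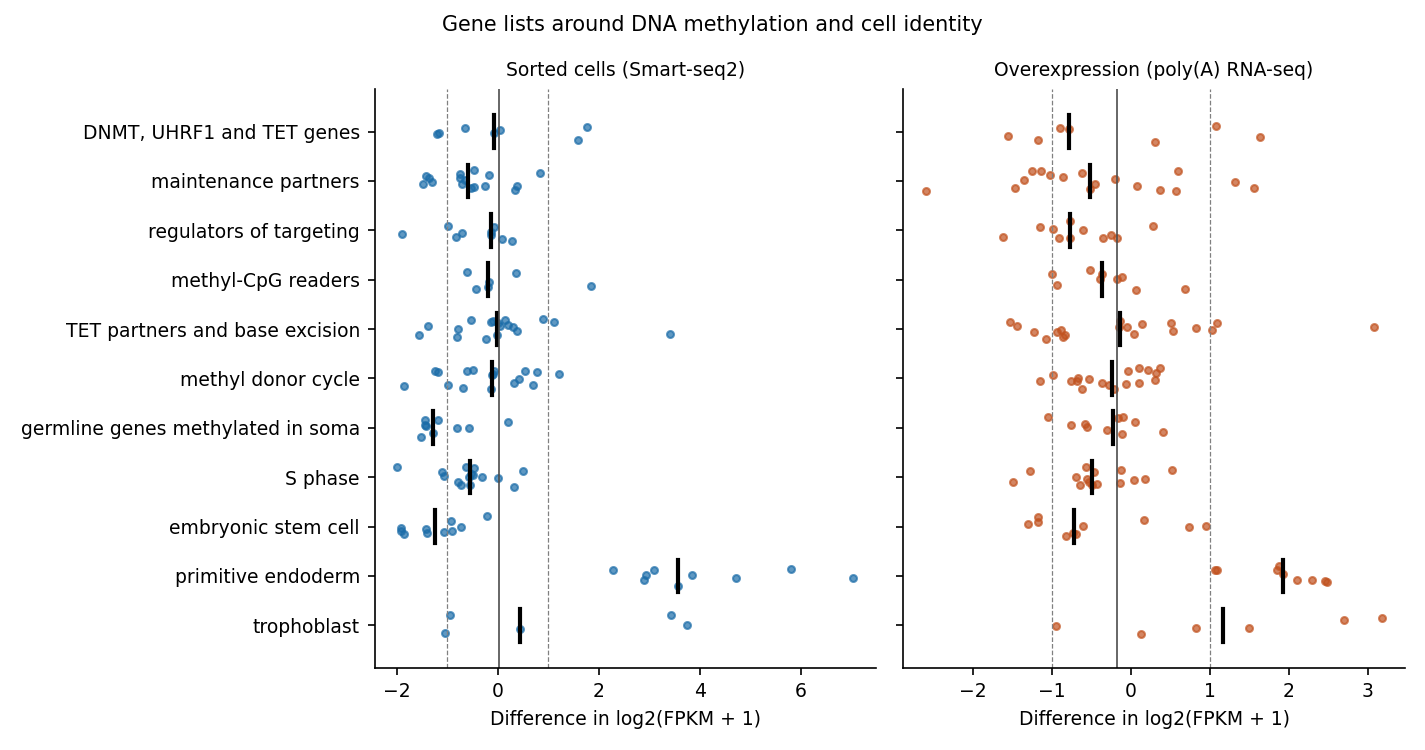
Difference in log2(FPKM + 1) of the genes tested (points, spread vertically for sight) in 11 lists in sorted cells and on overexpression, with each list's median as a thick black bar, the median of all genes as a thin line and 2-fold limits dashed. Primitive endoderm markers lie highest, with medians of 3.56 and 1.93, germline genes have a median of -1.29 in sorted cells and -0.23 on overexpression, and the DNA methylation genes spread to both sides.

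Markers of other cell types differed along with these genes. Of 10 primitive endoderm markers, 9 were tested and 9 were higher past 2-fold in each experiment. Of all genes, 13.8% were higher in sorted cells and 6.6% on overexpression. The markers had a summed level of 9.11 FPKM in negative and 533.14 FPKM in positive cells, and of 33.7 and 192.73 FPKM in GFP-OE and KLF3-OE. Their largest differences were those of Dab2 (0.78 and 232.84 FPKM), Col4a1 (1.47 and 138 FPKM) and Lama1 (0.62 and 41.9 FPKM) in sorted cells, and of Col4a1 (12.7 and 75.5 FPKM), Lama1 (6.38 and 39.7 FPKM) and Dab2 (6.26 and 34.7 FPKM) on overexpression. Foxa2 and Hnf4a were at the lowest value in negative cells. Dab2, Lama1, Pdgfra, Sox7 and Foxa2 were below 1 FPKM in negative cells, as were Foxa2, Sox7 and Pdgfra in GFP-OE. These genes reached the minimum only through the positive or KLF3-OE column, so their count as higher was largely fixed by it. Embryonic stem cell markers had 0 higher and 6 lower of 10 in sorted cells (median -1.24), led by Fgf4, Sox2 and Nanog (20.8 and 5.03 FPKM). On overexpression 0 were higher and 3 lower of 10 (median -0.72), which were Nanog (254.52 and 102.59 FPKM), Esrrb and Klf4. Of all genes, 8.32% were lower in sorted cells and 10.1% on overexpression. After median-ratio scaling 1 was higher on overexpression, Utf1 (203.68 and 394.69 FPKM), and 1 lower. Dppa5a (3793.78 and 6334.07 FPKM) and Pou5f1 (883.19 and 989.69 FPKM), named after their values were seen, also lay above 0 on overexpression. The summed level of the list was 5855.94 FPKM in GFP-OE and 8221.2 FPKM in KLF3-OE, most of it from Dppa5a. In these bulk samples a change in the share of cells of a type and a change in RNA per cell cannot be told apart, and the part of these cells in the values of Dnmt3l, Dnmt3a, Dnmt3b, Dnmt1, Tet1 and Tet2 was not tested.

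For the trophoblast, 2 genes were higher and 1 was lower of 5 tested in sorted cells (median 0.44) and 3 were higher and 0 lower of 6 on overexpression (median 1.16). For this list and those that follow, the shares of all genes were 13.8% higher and 8.32% lower in sorted cells. On overexpression they were 6.6% and 10.1%, and so few genes allow no reading of the counts. The higher genes were the keratin genes Krt18 (12.7 and 183 FPKM in sorted cells, 36.6 and 339.57 FPKM on overexpression) and Krt8 (18.3 and 206 FPKM, 26.3 and 176 FPKM). Hand1 (0.83 and 4.16 FPKM) was higher on overexpression, reaching the minimum only through KLF3-OE. The lower gene was Ascl2 (2.73 and 0.81 FPKM in sorted cells), reaching the minimum only through negative cells. On overexpression Ascl2 lay the other way, at 0.75 and 2.11 FPKM, within 2-fold on the log2(FPKM + 1) scale. The summed level of the list was 37.5 and 393 FPKM in sorted cells and 94.1 and 539.99 FPKM on overexpression, most of it from the 2 keratin genes in positive cells and KLF3-OE. Tfap2c, named after its values were seen, lay the other way, at 2.4 and 0.77 FPKM in sorted cells and at 26.2 and 13.1 FPKM on overexpression. Of the other trophoblast regulators in the list, Cdx2 and Gata3 were below the minimum in both experiments and Elf5 was not listed. Eomes stayed within 2-fold in both (0.83 and 1.48 FPKM, 3.04 and 3.43 FPKM). Post-implantation epiblast markers, of interest because de novo methyltransferases are known to be high in that tissue, had 0 higher and 1 lower of 3 tested in sorted cells (median -0.59) and 1 higher and 1 lower of 5 on overexpression (median 0.31). Tcf15 was at 194.59 and 74.0 FPKM in sorted cells and at 28.2 and 134.8 FPKM on overexpression, so it lay in the direction of Dnmt3a in both. Otx2 stayed within 2-fold in both (2.42 and 1.27 FPKM, 5.91 and 9.38 FPKM), and Zic2 did so in sorted cells (1.15 and 1.65 FPKM) but not on overexpression (3.91 and 0.42 FPKM). Zic2 reached the minimum there only through GFP-OE. Of the fibroblast and feeder markers, Fbln1 was the 1 tested in sorted cells (4.8 and 5.76 FPKM, a difference of 0.22), and on overexpression 0 were higher and 1 was lower of 3 (median 0.15), Fbln1 being at 19.3 and 7.79 FPKM, Twist1 at 0.92 and 1.25 FPKM and Thy1 at 2.72 and 3.14 FPKM.

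**Figure D5:**
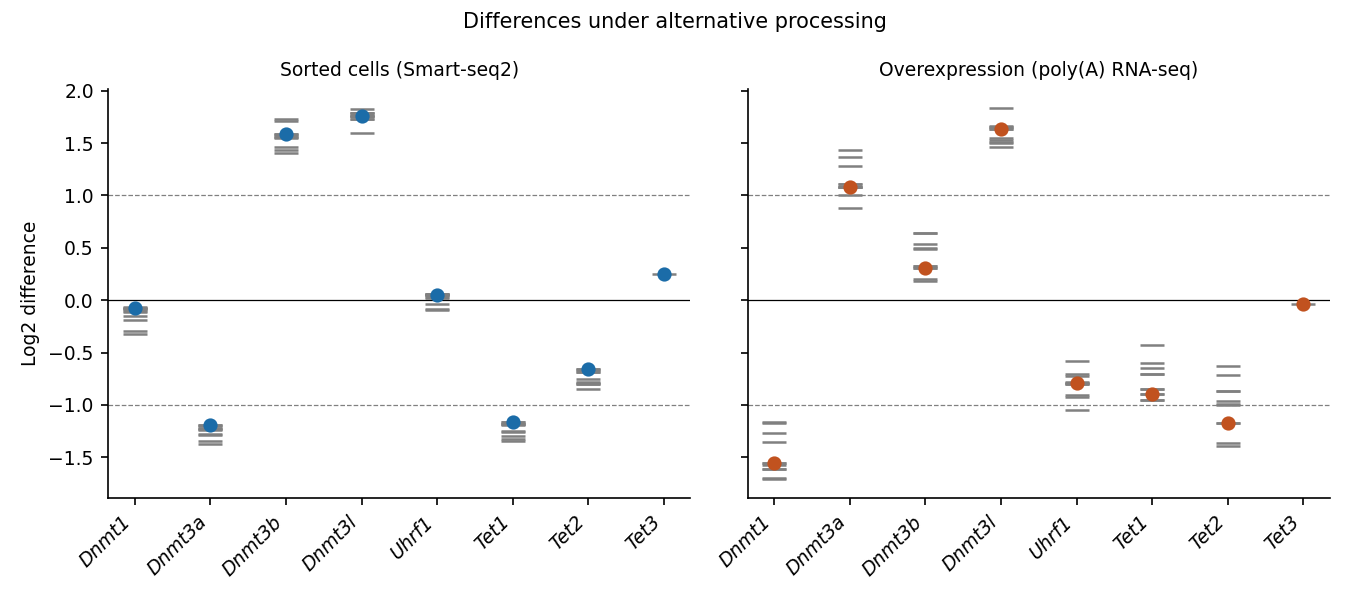
Log2 difference of each of the 8 genes on the log2(FPKM + 1) scale (filled circles) and under the other processings that cover it (grey bars, 11 for each gene but Tet3), in sorted cells and on overexpression, with 2-fold limits dashed. Tet3 is drawn although it was below the minimum and too low for a difference. The calls in sorted cells were the same under all 11, whereas on overexpression Tet2 ranged from -1.39 to -0.63 and Dnmt3a from 0.89 to 1.43, across the limits.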

How the data were processed

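The authors aligned reads to mm10 with STAR (version 2.6.0 in the submitters' processing notes), guided by GENCODE, and deposited FPKM from Cufflinks (version 2.2.1) as the mean of 2 replicates per condition, rounded to 2 decimals. The depth of each sample is unknown.

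Differences of log2(FPKM + 1) were computed within each table (Python 3.11.15, pandas 2.3.3) where the mean of both columns reached 1 FPKM, and a 2-fold difference on this scale was the limit. With 1 value per condition there was no test. Of repeated identifiers the locus of highest mean was kept. File starts count from 0 and are given from 1. The scripts were tested on simulated data.

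The members and the 12 gene lists were chosen with earlier results of these data known. Named are the 8 genes, the 3 genes of each list with the largest absolute difference in each experiment, Klf3 and the 5 genes nearest to Dnmt3l. Also named are the Y-linked genes, Aire and others where a count turns on them or where the text says so, chosen after their values were seen. The values of 1 further gene that the rule names are not reported here. The alternatives changed the pseudocount to 0.1, replaced it by a floor of 0.1, used no minimum, a minimum mean of 5 FPKM, median-ratio scaling, quantile normalization, or removed lowess trends (fraction 0.3, statsmodels 0.14.6) with genomic span. The 4 alternatives that use transcript GC content were added after the data were examined. They used GENCODE M21 transcripts, first as medians over the transcripts of a gene and then, because these included short fragments, for the longest transcript, and both are given.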

Additional observations from a re-analysis of the deposited data

How the results depend on the processing

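No paired analysis was possible because the tables hold 1 mean per condition, and for the same reason leaving out each replicate was not run. In sorted cells the counts of 2 higher and 2 lower genes were the same under all 11 alternatives. On overexpression the count of lower genes was 1 (Dnmt1) instead of 2 with median-ratio scaling, with the trend over genomic span removed, with the trend over GC content removed (longest transcript or median over transcripts) and with the trends over span, transcript length and GC content removed (both versions). Tet2 was then between -0.998 and -0.63, and with quantile normalization it was -0.87 while Uhrf1 passed the limit at -1.05. The count of higher genes was 1 (Dnmt3l) instead of 2 with the trend over GC content removed as the median over transcripts, where Dnmt3a was 0.89, but not for the longest transcript. These alternatives change the scale or take off a trend, and the cause of the trends was not tested. The difference of Uhrf1 in sorted cells, which was 0.05, turned sign under 3 of 11 alternatives, down to -0.09. Ratios between genes of a column stayed within 1.5 times their value with quantile normalization. The unknown depth and replicate spread limit every value.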
